A study of Bos taurus with 33 samples.

Results

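Endometrial gene expression on day 18 was compared between pregnant and cyclic heifers, taking the 4 arrays titled as pregnant and the 4 titled as non-pregnant controls on that day, 8 of the 33 arrays of the series. The series used Affymetrix bovine genome arrays, 1 per animal, to set the effects of early pregnancy beside those of human interferon alpha. All day 18 animals were Bavarian Simmental heifers whose cycles had been synchronised with cloprostenol, a prostaglandin F2α analogue. The pregnant heifers had been inseminated with thawed sperm of a single bull, and their conceptuses were taken out when the uteri were opened after slaughter on day 18. The cyclic heifers had received sperm-free supernatant instead and were slaughtered on the same day of the cycle. Tissue came from between the caruncles at the caudal end of the horn ipsilateral to the corpus luteum. On day 15 (3 pregnant and 3 cyclic heifers) and day 12 (5 and 5) other parts of the horn were taken, so that day and position along the horn cannot be told apart when effects are compared between days.

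By this time of pregnancy the bovine conceptus is an elongated, unattached membrane that secretes interferon tau, which acts on the uterine epithelium, induces interferon-stimulated genes and keeps the corpus luteum from regressing. Ruminant endometrium feeds it with histotroph, the mixture of proteins, sugars, amino acids and lipids that the luminal and glandular epithelium secretes or transports. Attachment involves epithelial surface molecules, integrins and their ligands, and in cyclic animals the loss of progesterone action at this stage allows oestrogen and oxytocin receptors to appear.

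Values are log2 probe set values after robust multi-array averaging, differences are pregnant minus cyclic with the standard error from limma, and a gene was called where its Benjamini-Hochberg adjusted p in limma was below 0.05. Array medians lay between 7.23 and 7.27, and each array correlated with its own group at 0.989 to 0.993 on average. Pregnant animal 1 correlated with the cyclic arrays at 0.985, closer than the other 3 pregnant animals (0.975 to 0.982). Signal differences between the 3′ and 5′ control probe sets overlapped between the groups for GAPDH. For EF1A they did not, at -1.91 to -1.67 in pregnant and -1.58 to -1.48 in cyclic animals, and the part of this shift in the results was not tested. Defining genes of both main compartments were present in every animal, such as the epithelial adhesion molecule EPCAM (12.29 to 12.62 in pregnant and 12.43 to 12.67 in cyclic animals) and the stromal proteoglycan DCN (13.60 to 13.81 and 13.71 to 13.74). The number of arrays limits the precision, and the median standard error of a difference was 0.101.

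Of 9155 genes, 2106 were called (23.0%), 1152 higher (12.6%) and 954 lower (10.4%) in pregnant animals. Rises and falls were close in number but not in size. A called rise exceeded 1 log2 unit for 202 genes (2.21%) and 2 log2 units for 57 (0.623%), whereas a called fall exceeded 1 for 21 genes (0.229%) and 2 for none. In 2248 genes (24.6%) the 4 pregnant values did not overlap the 4 cyclic ones. The median difference over all genes was -0.01, with quartiles at -0.15 and 0.14. The shares of all genes that rose (12.6%) and fell (10.4%) are the background for counts in gene and marker lists. At the level of all 24016 probe sets, 4562 were called (19.0%), of which 2123 were higher and 2439 lower (8.84% and 10.2%). Median centring of the arrays gave 2255 higher and 2217 lower, so which direction held more probe sets depended on the scaling.

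**Figure D1:**
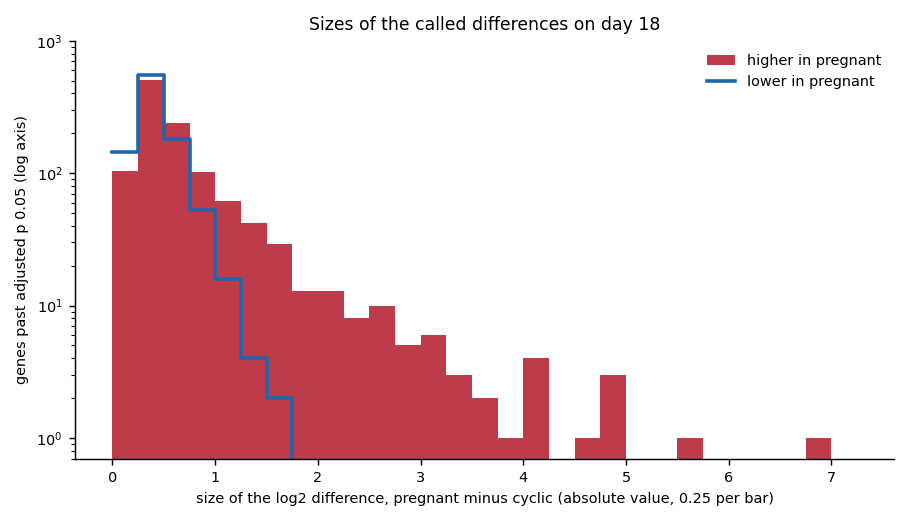
Number of genes called on day 18 (vertical log axis) by the absolute log2 difference between pregnant and cyclic endometrium (horizontal axis), for genes higher in pregnant animals (red bars) and genes lower in pregnant animals (blue outline). Red bars run out to 6.94, while the blue outline ends below 2.

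Outside the interferon list and the genes named LOC, the largest rises included surface, secreted and cytosolic proteins. PLET1, a glycosylphosphatidylinositol-anchored surface protein first described in mouse placenta, had 11.32, 12.38, 11 and 12.20 in pregnant animals, against 5.62, 4.90, 3.93 and 4.69 in cyclic animals. Every pregnant value lay more than 5 log2 units above every cyclic one, the difference was 6.94 ± 0.347 (adjusted p = 2.07e-12), and a second probe set of the gene was also called higher. UPK1B, a tetraspanin of urothelial plaques, had 8.37, 10.37, 7.70 and 8.27 in pregnant animals, against 5.11, 4.63, 4.31 and 4.66 in cyclic animals. It rose by 4.00 ± 0.408 (adjusted p = 2.83e-07), with pregnant animal 2 about 2 log2 units above the other pregnant animals. Of 20 genes listed as trophoblast markers, 0 rose, and the mean level of the list was 4.77 to 4.96 in pregnant and 4.93 to 5.01 in cyclic animals. Cyclic animals carried no conceptus, but this mean includes SSLP1 and PTGS2, which were high in them, so it does not measure background. Signals near or below that mean may still lie near background, which was not tested. Among such signals are the values of PGR and TJP1, the pregnant values of TSPAN19, POSTN and KDR, and the cyclic values of ACSL6, CCNB2, SPP1 and CTSL. The 1 member of the trophoblast list that fell was SSLP1 (-1.05 ± 0.277), at 8.20 to 9.81 in pregnant and 10.16 to 10.63 in cyclic animals. Its call ended in the fit on the 8 arrays alone (adjusted p = 0.0587). SSLP1 and the list member PTGS2 (9.72 to 10.59 in cyclic animals) were high without a conceptus, so neither marks trophoblast in these samples. The defining gene IFNT2, which encodes interferon tau, was at 5.63 to 5.93 in pregnant and 5.42 to 5.73 in cyclic animals and differed by 0.14 ± 0.126 (adjusted p = 0.521).

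FABP3, a cytosolic carrier of fatty acids, had 11.51, 12.98, 11.85 and 12.04 in pregnant animals, against 9.03, 7.23, 7.27 and 8.85 in cyclic animals. The cyclic animals fell into a higher and a lower pair, and the difference was 4.00 ± 0.388 (adjusted p = 1.34e-07). PTX3, a pentraxin that opsonises microbes, had 9.18, 9.62, 9.93 and 9.69 in pregnant animals, against 6.25, 6.67, 5.27 and 5.93 in cyclic animals, a rise of 3.58 ± 0.384 (adjusted p = 6.03e-07). SERPINA14, the uterine serpin secreted by the glands under progesterone, had 9.84, 10.35, 10.22 and 9.65 in pregnant animals, against 6.74, 7.19, 5.89 and 6.95 in cyclic animals. It rose by 3.32 ± 0.395 (adjusted p = 2.75e-06), a difference larger than the whole spread within either group. Among the immune attractants CXCL10, which draws T cells, rose by 3.41 ± 0.285, and CCL8, which draws monocytes, by 2.99 ± 0.185. The phosphatidylserine receptor TIMD4 rose by 2.93 ± 0.274, the calgranulin S100A12 by 2.41 ± 0.284 and complement factor B, CFB, by 2.36 ± 0.235. PLAC8B rose by 3.39 ± 0.196. GBP1 (2.90 ± 0.454) and IFI16 (2.79 ± 0.129), which are also known to respond to interferon, stood among these rises. The adjusted p of these 8 genes ran from 7.71e-13 for IFI16 to 9.83e-05 for GBP1.

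**Figure D2:**
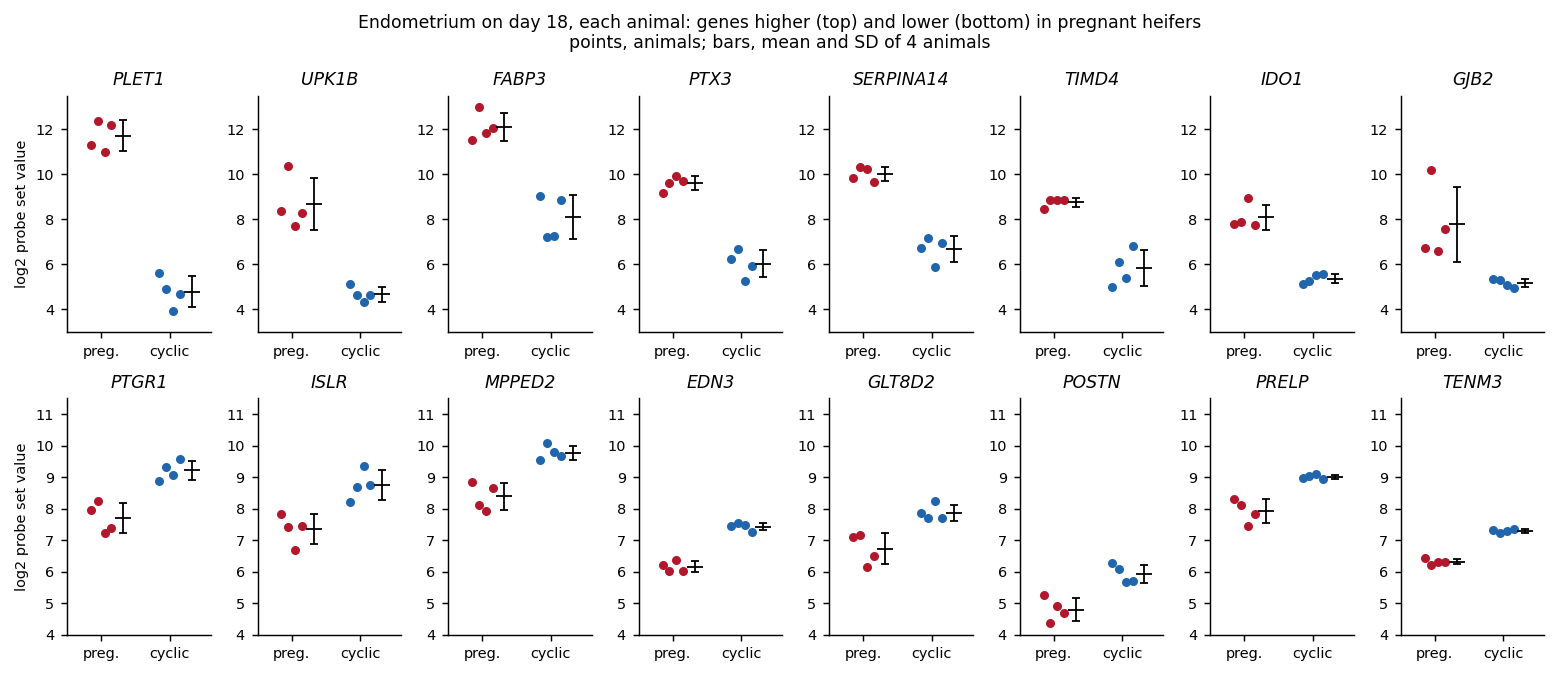
Log2 probe set values of 8 genes higher and 8 genes lower in pregnant endometrium, for each pregnant (red, left) and cyclic (blue, right) animal on day 18, with the mean and SD of 4 animals beside the points. The top row shares an axis and so does the bottom row. The 16 genes were chosen among those whose groups do not overlap. Pregnant animal 2 is the highest point for UPK1B, FABP3 and GJB2, and by a smaller margin for PLET1 and SERPINA14. For TIMD4 it is nearly level with pregnant animals 3 and 4.

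The interferon response list held the largest group of rises among the 24 gene lists by median. Of its 46 measured members 45 rose (97.8%, against 12.6% of all genes), 0 fell and 1 (HERC5) was not called, with a median of 2.41. MX2, an antiviral GTPase, had 11.71, 11.83, 12.15 and 11.93 in pregnant animals, against 6.25, 6.57, 5.81 and 6.70 in cyclic animals. It rose by 5.57 ± 0.270, followed by the antiviral protein RSAD2 (4.95 ± 0.284), the ubiquitin-like modifier ISG15 (4.90 ± 0.327), IFI44L (4.10 ± 0.217) and SAMD9 (4.02 ± 0.266). Pregnant values were tight for ISG15 (13.54 to 13.86) and cyclic ones wider (8.27 to 9.70).

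Among the lists of energy metabolism, the respiratory chain had the largest share of calls in the fit on 24 arrays, though not the largest differences. Of 70 measured subunits of the respiratory chain and ATP synthase, 42 rose (60.0%, against 12.6% of all genes), 1 fell (1.43%, against 10.4%) and 27 were not called. The median difference was 0.27. Single differences were small, the largest being COX7A1, a subunit of cytochrome c oxidase, at 0.82 ± 0.0936 (9.68, 9.71, 10.00 and 9.85 in pregnant animals, against 8.85, 9.07, 9.01 and 9.04 in cyclic animals). COX5A, another subunit of that enzyme, rose by 0.68 ± 0.115, and ATP5MC1, a ring subunit of ATP synthase, by 0.61 ± 0.119, while ATP5MC2, which encodes the same ring protein from another gene, fell by 0.27 on the log2 scale (SE 0.0738). That last call ended without pregnant animal 3 (adjusted p = 0.0601) and in the fit on the 8 day 18 arrays alone (0.0692). By complex, 21 of 37 complex I members rose (median 0.26), 8 of 9 of complex III (0.38), 4 of 9 of complex IV (0.20) and 9 of 15 of complex V (0.25). The list mean was 10.65, 11.04, 10.67 and 10.77 in pregnant animals, against 10.63, 10.53, 10.46 and 10.49 in cyclic animals. Pregnant animal 2 was the highest and pregnant animal 1 lay just above cyclic animal 1. Without pregnant animal 2 the count was 23 rises and 2 falls, without pregnant animal 3 43 rises and 0 falls, and in the fit on the 8 arrays alone 16 and 0.

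In the citric acid cycle and pyruvate entry, 7 of 28 genes rose and 1 fell, with a median of 0.14. The share that rose was above the 12.6% of all genes, and the share that fell was 3.57%, against 10.4%. Rises and falls together made up 28.6% of the list, against 23.0% of all genes. DLAT, the acetyltransferase of the pyruvate dehydrogenase complex, had 8.20, 8.58, 8.77 and 8.33 in pregnant animals, against 8.13, 7.65, 7.83 and 7.83 in cyclic animals, and rose by 0.61 ± 0.114. CS, citrate synthase, rose by 0.48 ± 0.105, although its second probe set was not called. MPC1, a subunit of the mitochondrial pyruvate carrier, was 0.54 ± 0.159 higher (adjusted p = 0.0205). Its call ended without pregnant animal 2 (0.38, adjusted p = 0.0983), without cyclic animal 1, 3 or 4, and in the fit on the 8 arrays alone. IDH2, mitochondrial isocitrate dehydrogenase, was the gene that fell (-0.28 ± 0.0902, adjusted p = 0.0328). The fall was not called without any 1 of cyclic animals 1, 2 and 4 and pregnant animals 2 and 4, after median centring (adjusted p = 0.0524) or in the fit on the 8 arrays alone (0.152). Without pregnant animal 1 the list had 2 falls. The rises numbered 3 in the fit on the 8 arrays alone.

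Glycolysis and glycogen genes showed 8 rises and 2 falls of 39 (20.5% and 5.13%, against 12.6% and 10.4% of all genes), with a median of 0.09. FBP1, the gluconeogenic fructose-1,6-bisphosphatase, had 7.35, 9.50, 7.65 and 8.36 in pregnant animals, against 6.77, 6.35, 6.39 and 6.46 in cyclic animals. It rose by 1.72 ± 0.287 (adjusted p = 0.00019), with all pregnant animals above all cyclic ones. PCK2, the mitochondrial phosphoenolpyruvate carboxykinase, rose by 1.14 ± 0.230 and PFKP, the platelet type of phosphofructokinase, by 0.99 ± 0.107. PYGB, a glycogen phosphorylase, fell by 0.41 on the log2 scale (SE 0.109) and PDK2, a kinase that inhibits pyruvate dehydrogenase, by 0.31 (SE 0.0708). PFKP values were 8.20 to 8.73 in pregnant and 7.43 to 7.57 in cyclic animals.

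Of 60 genes for the uptake, storage and oxidation of fatty acids 7 rose and 4 fell (11.7% and 6.67%, against 12.6% and 10.4% of all genes; median 0.02). Beside FABP3, the acyl-CoA synthetase ACSL6 rose by 0.94 ± 0.140 and the lipid droplet coat protein PLIN2 by 0.92 ± 0.241. The ACSL6 signal was weak, at 4.60 to 5.56 in pregnant and 3.89 to 4.24 in cyclic animals. PLIN2 stood at 9.32, 9.37, 10.29 and 9.49 in pregnant animals, against 8.58, 8.72, 8.77 and 8.72 in cyclic animals, with pregnant animal 3 highest. Of the enzymes of oxidation, the peroxisomal ACOX2 fell by 0.66 on the log2 scale (SE 0.146) and the mitochondrial HADH by 0.40 (SE 0.0765). GPAM, which starts glycerolipid synthesis, differed by -0.26 ± 0.0758, a call that ended without cyclic animal 1 or 2 or pregnant animal 4. LPL, the lipase that frees fatty acids from lipoproteins, had 5.58, 5.52, 5.94 and 5.01 in pregnant animals, against 5.40, 5.90, 5.38 and 5.17 in cyclic animals and did not pass (0.05 ± 0.269, adjusted p = 0.934). The list had 11 rises without pregnant animal 1 and 2 falls without cyclic animal 1 or 2.

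Of 32 genes of cholesterol and lipoprotein handling 1 rose and 3 fell (3.12% and 9.38%, against 12.6% and 10.4% of all genes), with a median of -0.05. The rise was PMVK, phosphomevalonate kinase of the cholesterol pathway, with 8.13, 8.77, 8.94 and 8.35 in pregnant animals, against 7.27, 7.13, 6.84 and 7.09 in cyclic animals (1.46 ± 0.165, adjusted p = 1.31e-06). The falls of APOA1, STAR and TM7SF2 lay near the threshold (adjusted p = 0.0496, 0.0493 and 0.0446). The count of falls was 0 without cyclic animal 2, 3 or 4 or pregnant animal 2, and 1 without pregnant animal 4. Without pregnant animal 1 there were 2 rises and 2 falls. After median centring there were 0 falls.

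Amino acid synthesis and its stress response had 17 rises and 3 falls of 43 (39.5% and 6.98%, against 12.6% and 10.4% of all genes), with a median of 0.22. WARS1, tryptophanyl-tRNA synthetase, which interferon is known to induce, had 11.07, 11.16, 11.86 and 11.27 in pregnant animals, against 9.67, 9.80, 9.78 and 9.89 in cyclic animals and rose by 1.56 ± 0.139. The stress transcription factor ATF3 rose by 1.35 ± 0.222 and the stress-induced nuclear protein NUPR1 by 1.23 ± 0.261. Of the genes in proline synthesis ALDH18A1 fell by 0.64 on the log2 scale (SE 0.113) and PYCR1 by 0.39 (SE 0.126), and so did the alanine aminotransferase GPT, by 0.44 (SE 0.109). For ALDH18A1 3 pregnant animals lay at 10.58 to 10.61 and pregnant animal 1 at 11.10, just under the lowest cyclic value of 11.18. The PYCR1 call ended in 6 of the 8 fits with 1 animal left out, where only those without cyclic animal 1 or pregnant animal 4 kept it, and with array weights (adjusted p = 0.0579). The list's rises numbered 11 without cyclic animal 3 and 11 in the fit on the 8 arrays alone.

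In the list of polyamine, creatine and tryptophan metabolism 5 of 23 rose and 2 fell, with a median of 0.09. The shares were 21.7% and 8.7%, against 12.6% and 10.4% of all genes. IDO1, which starts tryptophan breakdown and responds to interferon, had 7.80, 7.87, 8.94 and 7.75 in pregnant animals, against 5.15, 5.25, 5.51 and 5.57 in cyclic animals, a rise of 2.72 ± 0.194 (adjusted p = 8.8e-10). The mitochondrial creatine kinase CKMT1A rose by 1.43 ± 0.369, while GAMT, the last enzyme of creatine synthesis, fell by 0.86 on the log2 scale (SE 0.088). GAMT values ran from 7.20 to 7.77 in pregnant and from 8.25 to 8.48 in cyclic animals. Rises numbered 2 without cyclic animal 2, cyclic animal 3 or pregnant animal 2 and in the fit on the 8 arrays alone, and 3 without pregnant animal 3; falls numbered 1 without pregnant animal 4.

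Of 45 redox and metal-binding genes 6 rose and 4 fell (13.3% and 8.89%), near the 12.6% and 10.4% of all genes (median 0.10). TXN, thioredoxin, had 11.57, 12.10, 12.15 and 11.98 in pregnant animals, against 11.34, 11.34, 11.20 and 11.29 in cyclic animals and rose by 0.66 ± 0.104. Haptoglobin, HP, rose by 1.09 ± 0.218. GPX3, a secreted glutathione peroxidase, was at 5.49, 7.82, 5.50 and 5.76 in pregnant animals, against 4.83, 5.20, 4.95 and 4.69 in cyclic animals. Its rise of 1.23 ± 0.333 was 0.67 without pregnant animal 2, where it was still called (adjusted p = 0.011), and the call ended in the fit on the 8 arrays alone (0.114). Peroxiredoxin PRDX5 fell by 0.48 on the log2 scale (SE 0.0899) and catalase, CAT, by 0.34 (SE 0.0728).

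Of 48 enzymes acting on retinoids, steroids and prostaglandins 5 rose (10.4%) and 7 fell (14.6%), near the shares of all genes (12.6% and 10.4%), with a median of -0.13. PTGR1, a reductase that inactivates prostaglandins and leukotriene B4, showed the largest fall among genes with a symbol whose groups did not overlap, genes named LOC aside. It had 7.96, 8.25, 7.22 and 7.38 in pregnant animals, against 8.89, 9.32, 9.07 and 9.59 in cyclic animals, a difference of -1.52 ± 0.259 (adjusted p = 0.000253), and a second probe set was called lower too. PTGDS, a prostaglandin D synthase, fell by 0.71 on the log2 scale (SE 0.188), although pregnant animal 1 (10.89) lay above cyclic animal 2 (10.86). AKR1B1, an aldo-keto reductase able to make prostaglandin F2α, fell by 0.66 (SE 0.135), at 10.93 to 11.59 in pregnant and 11.85 to 12.14 in cyclic animals. ALOX5AP, the activating protein of 5-lipoxygenase, rose by 1.78 ± 0.130 and the lipoxygenase ALOX12 by 1.49 ± 0.288. The mean over the 3 probe sets of ALOX12 differed by 0.55, and its other 2 probe sets were not called. PTGS2, the inducible cyclooxygenase, stood at 9.71 to 10.26 in pregnant and 9.72 to 10.59 in cyclic animals and did not pass (-0.10 ± 0.348, adjusted p = 0.887). HSD11B1, which regenerates cortisol, was 0.88 ± 0.291 higher (adjusted p = 0.0383), a call that held only without pregnant animal 1 among the 8 fits that left out 1 animal and ended with array weights (adjusted p = 0.0501). The list had 3 rises without cyclic animal 2, cyclic animal 3 or pregnant animal 2.

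**Figure D3:**
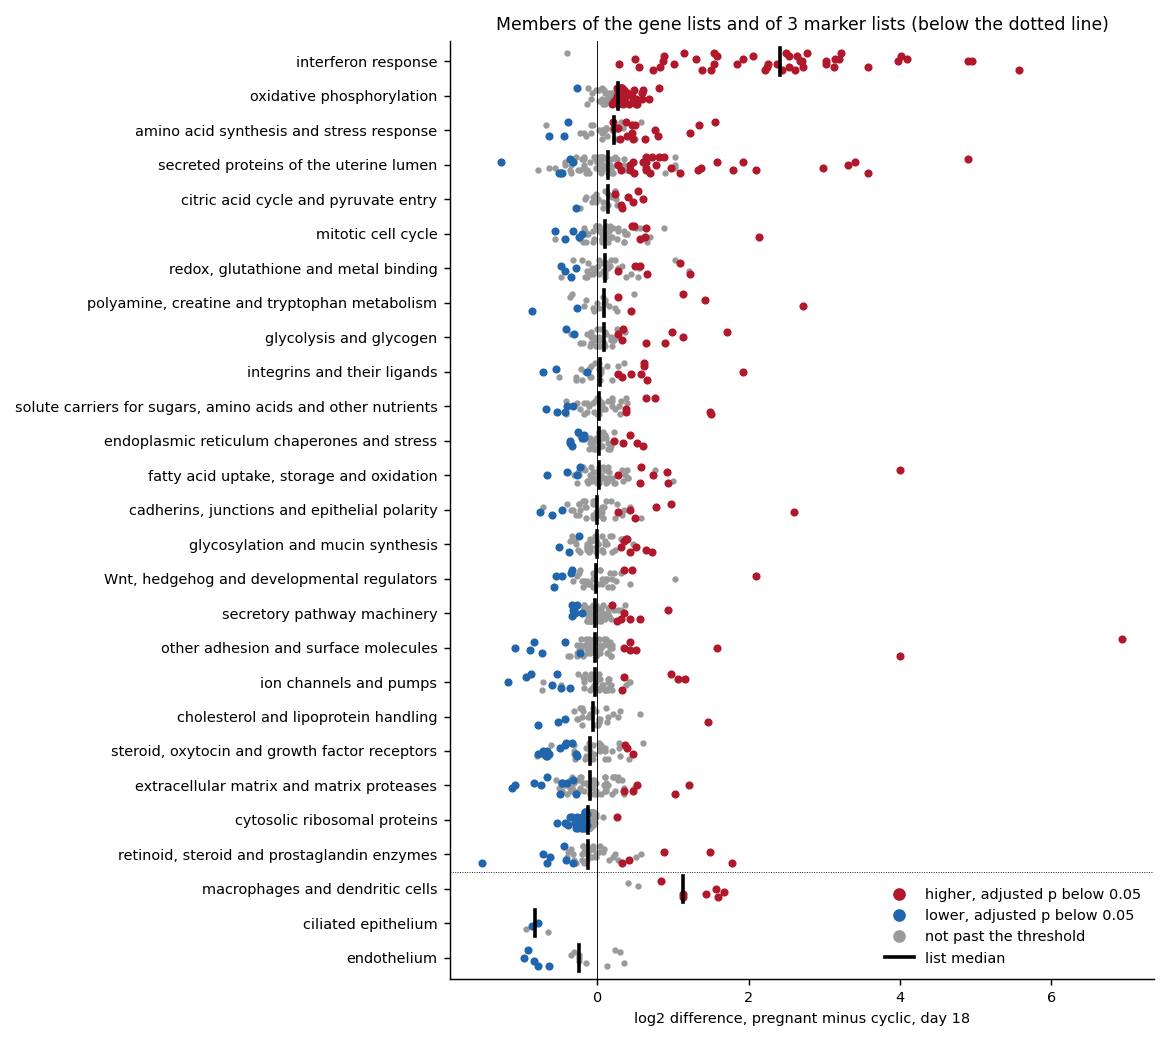
Log2 differences between pregnant and cyclic endometrium on day 18 (horizontal axis) for each measured member of 24 gene lists and 3 marker lists, with called rises in red, called falls in blue, other members in grey and the list median as a black bar. The interferon list stands at a median of 2.41 and the macrophage and dendritic cell markers at 1.14, while the medians of the other 23 gene lists lie between -0.13 and 0.27.

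Of 42 solute carriers 6 rose and 5 fell (14.3% and 11.9%), near the 12.6% and 10.4% of all genes (median 0.03). SLC2A1, a facilitative glucose transporter, had 12.23, 12.35, 12.51 and 12.56 in pregnant animals, against 11.48, 11.95, 11.83 and 11.35 in cyclic animals and rose by 0.76 ± 0.143. SLC16A1, a monocarboxylate transporter, rose by 1.49 ± 0.282, and SLC15A1, a peptide transporter, by 1.51 ± 0.361. SLC15A1 values were 6.85, 8.95, 6.74 and 5.93 in pregnant animals, against 5.60, 6.00, 5.22 and 5.62 in cyclic animals, so that pregnant animal 4 lay below cyclic animal 2. Without pregnant animal 2 the difference was 0.90, and the call ended in the fit on the 8 arrays alone (adjusted p = 0.0951). The creatine transporter SLC6A8 fell by 0.53 on the log2 scale (SE 0.137), a call that ended with the mean over its probe sets (adjusted p = 0.052). SLC5A1, which takes up glucose with sodium, did not pass (0.01 ± 0.488; 9.69 to 10.84 in pregnant and 9.75 to 10.66 in cyclic animals). The fall of SLC16A3 was not called without cyclic animal 1, cyclic animal 3 or pregnant animal 3, or in the fit on the 8 arrays alone (adjusted p = 0.0711). That of SLC2A3 was called only without cyclic animal 2 among the 8 fits that left out 1 animal, and not after median centring (adjusted p = 0.0529). The count of falls was 2 without cyclic animal 1 or pregnant animal 3 and 3 without cyclic animal 3 or pregnant animal 2.

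Among 50 ion channels and pumps 5 rose and 7 fell, a called share near the 23.0% of all genes (median -0.03). SCNN1A, a subunit of the epithelial sodium channel, had 8.40, 7.30, 6.90 and 8.05 in pregnant animals, against 9.07, 8.87, 9.11 and 8.33 in cyclic animals, a difference of -1.18 ± 0.246 (adjusted p = 0.00161). Pregnant animal 1 lay above cyclic animal 4. KCNMA1, a calcium-activated potassium channel, fell by 0.88 on the log2 scale (SE 0.190) and CA8, a protein related to carbonic anhydrases, by 0.94 (SE 0.278). The carbonic anhydrase CA4 rose by 1.07 ± 0.216 and SLC12A2, a sodium, potassium and chloride cotransporter, by 0.97 ± 0.221. ATP6V0A4, a proton pump subunit, was 1.16 ± 0.349 higher. The calls of CA8 ended without cyclic animal 3 or pregnant animal 2 or 4, and that of ATP6V0A4 without cyclic animal 2, 3 or 4 or pregnant animal 2. Counts were 4 rises and 4 falls without cyclic animal 2, 3 and 6 without cyclic animal 3, and 3 and 3 without pregnant animal 2.

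Secreted proteins of the uterine lumen had 30 rises and 6 falls of 100 (30.0% and 6.0%, against 12.6% and 10.4% of all genes), with a median of 0.14. Beside PTX3, SERPINA14 and the chemokines, SPP1, osteopontin, which binds integrins, had 7.76, 6.92, 5.39 and 5.14 in pregnant animals, against 4.30, 4.63, 4.35 and 4.21 in cyclic animals. It rose by 1.93 ± 0.394 (adjusted p = 0.00137), with pregnant animals 1 and 2 well above pregnant animals 3 and 4. CTSL, a lysosomal protease, was at 5.15 to 5.41 in pregnant and 4.26 to 4.84 in cyclic animals (0.73 ± 0.217, adjusted p = 0.0207), a call that ended without cyclic animal 1 or 3. CST6, a protease inhibitor, stood at 11.29, 11.74, 12.11 and 11.93 in pregnant animals, against 10.73, 11.39, 10.66 and 10.73 in cyclic animals and did not pass (0.89 ± 0.364, adjusted p = 0.0937). EDN3, an endothelin peptide, was the largest of the falls in this list. It had 6.22, 6.02, 6.38 and 6.01 in pregnant animals, against 7.45, 7.54, 7.48 and 7.26 in cyclic animals, a difference of -1.27 ± 0.172 (adjusted p = 1.52e-05). VEGFA, the vascular growth factor, fell by 0.51 on the log2 scale (SE 0.121). Its second probe set was not called. IGFBP1, an insulin-like growth factor binding protein, had 7.71, 7.36, 10.98 and 8.14 in pregnant animals, against 9.05, 9.47, 9.59 and 9.22 in cyclic animals. Pregnant animal 3 lay above all cyclic animals and the other 3 below them, and the gene did not pass (-0.78 ± 0.661, adjusted p = 0.467). The mucin MUC1 did not pass either (0.18 ± 0.154, adjusted p = 0.461).

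Of 72 genes of the secretory pathway 7 rose and 7 fell (9.72% each way, against 12.6% and 10.4% of all genes), with a median of -0.02. Of 40 chaperones and stress genes of the endoplasmic reticulum 5 rose and 7 fell (12.5% and 17.5%), with a median of 0.02. RAB27B, a small GTPase of secretory granules, had 5.87, 7.19, 6.66 and 6.30 in pregnant animals, against 5.78, 5.60, 5.34 and 5.58 in cyclic animals and rose by 0.93 ± 0.188. RAB8A, which carries vesicles to the apical surface, rose by 0.57 ± 0.0774. The cargo receptor TMED10 fell by 0.33 on the log2 scale (SE 0.0522; 11.78 to 11.85 in pregnant and 12.12 to 12.16 in cyclic animals), SSR1 of the translocon by 0.33 (SE 0.0753) and the COPII coat protein SEC31A by 0.32 (SE 0.0665). Among chaperones MANF rose by 0.60 ± 0.111, CRELD2 by 0.53 ± 0.128 and the protein disulfide isomerase PDIA3 by 0.44 ± 0.0734, while DNAJC10, which reduces misfolded proteins, fell by 0.33 (SE 0.0811). PDIA3 was at 11.40 to 11.59 in pregnant and 11.02 to 11.06 in cyclic animals. After quantile normalisation the secretory pathway had 12 falls. Rises and falls of the chaperone list were 5 and 3 without cyclic animal 1, 4 and 3 without cyclic animal 3, 3 and 4 without cyclic animal 4, 8 and 7 without pregnant animal 1, 3 and 5 without pregnant animal 2, and 3 and 4 without pregnant animal 3.

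Of 50 genes of glycosylation and mucin synthesis 8 rose and 3 fell, a called share near the 23.0% of all genes (median 0.00). B3GNT2, which extends poly-N-acetyllactosamine chains, had 10.50, 10.81, 11.12 and 10.61 in pregnant animals, against 10.19, 10.01, 10.30 and 10.00 in cyclic animals and rose by 0.64 ± 0.117. B3GALT2, a galactosyltransferase, rose by 0.72 ± 0.157 and CHST1, a carbohydrate sulfotransferase, by 0.52 ± 0.0988. The mean over the 4 probe sets of B3GALT2 differed by 0.40. GMDS, which makes the precursor of GDP-fucose, fell by 0.50 on the log2 scale (SE 0.109). The count of falls was 1 without cyclic animal 3 or 4 or pregnant animal 3 or 4, and rises numbered 4 in the fit on the 8 arrays alone.

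Of 33 integrins and their ligands 8 rose (24.2%) and 3 fell (9.09%), against 12.6% and 10.4% of all genes (median 0.04). Beside the ligand SPP1, ITGA3, a laminin-binding integrin chain, had 8.48, 9.10, 8.20 and 8.83 in pregnant animals, against 8.12, 8.01, 7.86 and 7.96 in cyclic animals and rose by 0.66 ± 0.138. ITGB6, an epithelial chain, rose by 0.62 ± 0.148, a call that ended in the fit on the 8 arrays alone (adjusted p = 0.0638). ITGA7, another laminin-binding chain, fell by 0.72 on the log2 scale (SE 0.122), at 8.00 to 8.49 in pregnant and 8.57 to 9.07 in cyclic animals, and both other probe sets of the gene were called lower. ITGAE, a chain of intraepithelial lymphocytes, fell by 0.55 (SE 0.087). IBSP, bone sialoprotein, fell by 0.14 (SE 0.0435), a call that ended without cyclic animal 3 or pregnant animal 4, in the fit on the 8 arrays alone (adjusted p = 0.136) and under quantile normalisation (0.0608). Its second probe set was not called, and the mean over both differed by -0.06 (adjusted p = 0.414).

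Of 47 genes of cadherins, junctions and polarity 6 rose and 3 fell (12.8% and 6.38%, against 12.6% and 10.4% of all genes; median 0.00). GJB2, the gap junction protein connexin 26, had 6.75, 10.20, 6.59 and 7.56 in pregnant animals, against 5.36, 5.30, 5.07 and 4.96 in cyclic animals and rose by 2.60 ± 0.462 (adjusted p = 0.000366). Pregnant animal 2 lay far above the rest, and without it the difference was 1.79. The mean over its 3 probe sets differed by 1.33. PKP1, a desmosomal plakophilin, rose by 0.97 ± 0.175 and CLDN4, a tight junction claudin, by 0.78 ± 0.169. CELSR2, a polarity cadherin, fell by 0.59 on the log2 scale (SE 0.128), with its second probe set not called. CDH13, a cadherin without a cytoplasmic domain, was 7.30, 6.84, 7.44 and 7.0 in pregnant animals, against 8.04, 8.04, 8.18 and 7.33 in cyclic animals, where cyclic animal 4 lay inside the pregnant range. Its fall of 0.75 on the log2 scale (SE 0.207) was not called without pregnant animal 2 (adjusted p = 0.0537). TJP1, a tight junction scaffold, fell by 0.46 (SE 0.120). With the mean over its probe sets it differed by -0.19 and was not called (adjusted p = 0.0967). Of 13 epithelial markers 4 rose (30.8%), among them CLDN4 and the cadherin CDH1, and 1 fell (7.69%). Their mean level overlapped between the groups (9.46 to 9.74 in pregnant and 9.42 to 9.70 in cyclic animals). Rises and falls of these markers were 2 and 0 without cyclic animal 1, 3 and 0 without cyclic animal 2 or pregnant animal 2 or 3, 4 and 2 without pregnant animal 1, and 2 and 1 without pregnant animal 4.

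Among 59 other adhesion and surface molecules, which include PLET1 and UPK1B, 7 rose and 6 fell, close to the shares of all genes (11.9% and 10.2%, against 12.6% and 10.4% of all genes; median -0.03). LGALS9, a galectin that responds to interferon, rose by 1.59 ± 0.124. EFNB3, a membrane-bound ephrin, had 7.69, 6.90, 6.67 and 7.07 in pregnant animals, against 7.98, 7.96, 8.35 and 8.36 in cyclic animals, a difference of -1.08 ± 0.183 (adjusted p = 0.000223). PECAM1, an adhesion molecule of endothelium, fell by 0.83 on the log2 scale (SE 0.153), with 7.55 to 7.90 in pregnant and 8.29 to 9.00 in cyclic animals. The tetraspanin TSPAN1 differed by -0.89 ± 0.251, a call that ended without cyclic animal 2 or pregnant animal 2 or 4 and in the fit on the 8 arrays alone (adjusted p = 0.0682).

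The extracellular matrix list held several of the larger falls, with 5 rises (6.58%) and 11 falls (14.5%) of 76, against 12.6% and 10.4% of all genes, and a median of -0.10. POSTN, periostin, had 5.25, 4.36, 4.90 and 4.69 in pregnant animals, against 6.27, 6.08, 5.68 and 5.69 in cyclic animals and fell by 1.13 on the log2 scale (SE 0.291, adjusted p = 0.00851). PRELP, a leucine-rich proteoglycan, had 8.31, 8.11, 7.44 and 7.82 in pregnant animals, against 8.97, 9.04, 9.09 and 8.94 in cyclic animals. It fell by 1.09 (SE 0.139), with cyclic values far tighter than pregnant ones, and the mean over its probe sets fell by 0.68. TNXB, tenascin X, fell by 0.84 (SE 0.175). FMOD, fibromodulin, another leucine-rich proteoglycan, moved the other way, with 9.17, 9.41, 9.50 and 9.59 in pregnant animals, against 7.72, 8.19, 8.43 and 8.48 in cyclic animals (1.21 ± 0.162, adjusted p = 1.35e-05). COL18A1, a basement membrane collagen, rose by 1.03 ± 0.213 and the metalloproteinase ADAM9 by 0.53 ± 0.129. The ADAM9 call ended in the fit on the 8 arrays alone (adjusted p = 0.0577). The mean level of the matrix list was 8.64, 8.66, 8.55 and 8.59 in pregnant animals, against 8.71, 8.70, 8.75 and 8.70 in cyclic animals. Of 11 stromal markers 2 rose and 2 fell (18.2% each way, median -0.09). Their mean level overlapped between the groups, at 11.08 to 11.22 in pregnant and 11.12 to 11.27 in cyclic animals. Their rises and falls were 0 and 2 without pregnant animal 2, 1 and 3 without pregnant animal 1, and 1 and 2 without either cyclic animal 2 or cyclic animal 4.

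Lower genes outside the lists had differences of similar size. ISLR, a secreted leucine-rich protein of fibroblasts, had 7.84, 7.42, 6.69 and 7.45 in pregnant animals, against 8.21, 8.69, 9.37 and 8.76 in cyclic animals. It fell by 1.41 on the log2 scale (SE 0.248, adjusted p = 0.000345), and 2 of its 3 other probe sets were called lower. The mean over all 4 probe sets fell by 0.90. MPPED2, a metallophosphoesterase, had 8.85, 8.11, 7.93 and 8.66 in pregnant animals, against 9.54, 10.08, 9.79 and 9.67 in cyclic animals (-1.38 ± 0.176, adjusted p = 7.08e-06). GLT8D2, a glycosyltransferase-like protein, fell by 1.14 (SE 0.200), MYOC, the secreted protein myocilin, by 1.13 (SE 0.252) and CCDC80, an extracellular adhesion protein, by 1.01 (SE 0.169). CCL14, a chemokine, fell by 1.14 (SE 0.312), at 7.04 to 8.56 in pregnant and 8.60 to 9.57 in cyclic animals. Its call ended without pregnant animal 3 (-0.83, adjusted p = 0.0604) and in the fit on the 8 arrays alone (0.0506). SH3BGR fell by 1.03 (SE 0.201), MTURN by 0.96 (SE 0.147) and TMED6 by 0.94 (SE 0.184). The genes of this paragraph were chosen among those whose groups did not overlap. The mean over the probe sets of MTURN fell by 0.52.

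TENM3, a teneurin of cell recognition, had close values within each group. It had 6.44, 6.22, 6.32 and 6.31 in pregnant animals, against 7.32, 7.23, 7.28 and 7.34 in cyclic animals, a difference of -0.97 ± 0.0704 (adjusted p = 1.22e-09), and both other probe sets were called lower.

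Some falls were those of markers of particular cell types, or stood beside falls of such markers. In whole tissue fewer cells of a type cannot be told apart from less RNA per cell. PLVAP, a protein of endothelial diaphragms, had 7.99, 8.25, 7.97 and 7.67 in pregnant animals, against 9.07, 9.22, 9.09 and 8.36 in cyclic animals and fell by 0.96 on the log2 scale (SE 0.218). KDR, the main receptor for VEGFA, fell by 0.78 (SE 0.171), with its second probe set not called and a mean over both of -0.39. Of 15 endothelial markers 5 fell (PLVAP, PECAM1, TIE1, KDR and VWF), 0 rose and 10 were not called, among them the endothelial cadherin CDH5 (-0.15 ± 0.133). The share that fell was 33.3%, against 10.4% of all genes. The list mean was 7.68 to 7.97 in pregnant and 7.91 to 8.45 in cyclic animals, so that cyclic animal 4 lay inside the pregnant range. Without cyclic animal 3 the list had 1 rise and 4 falls. PLVAP, PECAM1 and KDR are themselves in the marker list, so the list gives no separate measure beside them. The part of endothelial cell number in their falls and in that of VEGFA was not tested.

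IQCA1, an axonemal protein, had 8.82, 7.47, 8.75 and 8.89 in pregnant animals, against 9.12, 9.96, 9.09 and 9.76 in cyclic animals. Its difference of -1.0 ± 0.243 became -0.66 without pregnant animal 2, still called, and the call ended in the fit on the 8 arrays alone (adjusted p = 0.0756). TSPAN19, a tetraspanin, had 4.04, 3.46, 4.64 and 4.14 in pregnant animals, against 4.78, 5.47, 5.55 and 5.92 in cyclic animals (-1.36 ± 0.270, adjusted p = 0.00106). Of 4 markers of ciliated epithelium 2 fell (TPPP3 and TEKT1) and 0 rose, a share of 50.0% lower, against 10.4% of all genes. Their mean was 7.45, 6.02, 7.53 and 7.12 in pregnant animals, against 7.24, 8.26, 7.69 and 8.16 in cyclic animals, overlapping through cyclic animal 1, with pregnant animal 2 lowest. Without pregnant animal 2 or cyclic animal 2, 3 or 4 there was 1 fall. The part of ciliated cells in the falls of IQCA1 and TSPAN19 was not tested.

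Markers of macrophages and dendritic cells went the other way. Of 9 measured 7 rose (77.8%, against 12.6% of all genes), 0 fell and 2 (CD14 and CD68) were not called. The median was 1.14, and list means were 8.86 to 9.33 in pregnant and 7.74 to 8.00 in cyclic animals. The complement chain C1QB rose by 1.68 ± 0.185 and the Fc receptor FCGR1A by 1.60 ± 0.149. CCL8, TIMD4, ALOX5AP, CTSL and SPP1, which macrophages can express, were also higher in pregnant animals. The highest pregnant animal was 2 for the marker mean and ALOX5AP, 1 for SPP1 and CTSL, and 3 for CCL8. For TIMD4 pregnant animals 2, 3 and 4 were nearly level (8.87, 8.86 and 8.86). The part of these cells in those rises was not tested.

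**Figure D4:**
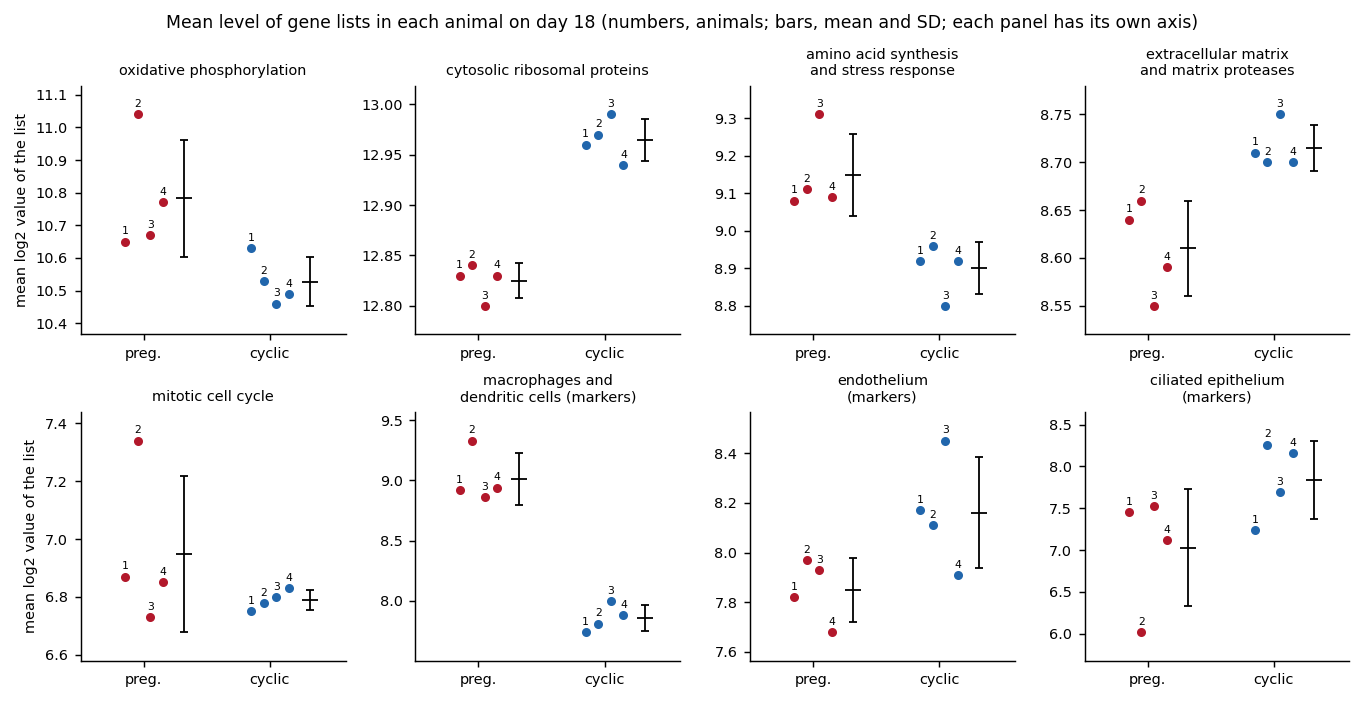
Mean log2 value of 5 gene lists and 3 marker lists in each pregnant (red, left) and cyclic (blue, right) animal on day 18, with animal numbers above the points and the mean and SD of 4 animals beside them; each panel has its own axis. Pregnant animal 2 is the highest for oxidative phosphorylation and the cell cycle and the lowest for ciliated markers, and ribosomal protein means do not overlap between the groups.

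Ribosomal protein genes showed many small falls. Of 61 measured cytosolic members 25 fell (41.0%, against 10.4% of all genes), 1 rose (1.64%, against 12.6%) and 35 were not called. The median was -0.12. RPS7 of the small subunit had 12.30, 12.37, 12.22 and 12.28 in pregnant animals, against 12.75, 12.89, 12.99 and 12.66 in cyclic animals, a difference of -0.53 ± 0.0657 (adjusted p = 5.02e-06). Its other 2 probe sets were not called, and the mean over all 3 differed by -0.25. RPL4 of the large subunit fell by 0.42 on the log2 scale (SE 0.0482), while RPS28 was 0.26 ± 0.0745 higher, a call that ended without cyclic animal 2 or pregnant animal 2 and in the fit on the 8 arrays alone. The list mean was 12.83, 12.84, 12.80 and 12.83 in pregnant animals, against 12.96, 12.97, 12.99 and 12.94 in cyclic animals. The EF1A signal difference between 3′ and 5′ probe sets moved with the same groups, and its part in these falls was not tested. There were 0 rises and 18 falls without cyclic animal 2, 0 and 17 without pregnant animal 2, and 0 and 13 in the fit on the 8 arrays alone.

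Among receptors for steroids, oxytocin and growth factors there were 3 rises and 13 falls of 48 and a median of -0.09. The shares were 6.25% and 27.1%, against 12.6% and 10.4% of all genes. ESR1, oestrogen receptor alpha, had 5.59, 5.37, 5.07 and 5.52 in pregnant animals, against 5.97, 5.99, 6.41 and 6.00 in cyclic animals, a difference of -0.70 ± 0.109 (adjusted p = 8.79e-05). OXTR, the oxytocin receptor, had 6.26, 6.25, 5.78 and 6.00 in pregnant animals, against 6.61, 6.29, 7.38 and 6.66 in cyclic animals. Cyclic animal 3 was highest and cyclic animal 2 barely above the pregnant range. The OXTR difference of -0.66 ± 0.208 (adjusted p = 0.0285) was not called without cyclic animal 3 (-0.45, adjusted p = 0.125), without pregnant animal 3 or 4, or in the fit on the 8 arrays alone (0.0706). ESR2, oestrogen receptor beta, fell by 0.72 on the log2 scale (SE 0.207), a call that ended without cyclic animal 2 or pregnant animal 2 and in the fit on the 8 arrays alone (adjusted p = 0.0606). PGR, the progesterone receptor, stood at 4.57 to 4.77 in pregnant and 4.49 to 4.86 in cyclic animals and did not pass (0.04 ± 0.126, adjusted p = 0.869). These values lay below the mean level of the trophoblast list in cyclic animals (4.93 to 5.01). That mean includes SSLP1 and PTGS2, which were high in cyclic animals, so it does not measure background. The PGR signal may lie near background, which was not tested. PDGFRA was 0.48 ± 0.142 higher, whereas 1 of its 2 other probe sets was called lower and the mean over the 3 differed by -0.00 (adjusted p = 0.99). Its call ended without cyclic animal 4 or pregnant animal 2. The list had 8 falls without pregnant animal 3, and 1 rise and 10 falls without pregnant animal 2.

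Of 42 genes of Wnt, hedgehog and developmental regulation 3 rose and 5 fell (7.14% and 11.9%, against 12.6% and 10.4% of all genes; median -0.02). DKK1, a secreted Wnt antagonist, had 11.16, 12.26, 11.87 and 11.75 in pregnant animals, against 10.16, 10.07, 9.39 and 9.04 in cyclic animals and rose by 2.10 ± 0.363 (adjusted p = 0.000284). SOX4, a transcription factor, fell by 0.57 on the log2 scale (SE 0.115), and MSX1, a homeobox factor, by 0.55 (SE 0.146). MSX1 was not called without pregnant animal 2 (adjusted p = 0.0542). Counts were 1 rise and 3 falls without pregnant animal 2, 1 and 4 without cyclic animal 2, 3 and 3 without cyclic animal 1, and 2 and 3 without pregnant animal 3.

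In the mitotic cell cycle 6 of 61 genes rose and 5 fell (9.84% and 8.20%, against 12.6% and 10.4% of all genes; median 0.10). CCNB2, a mitotic cyclin, had 5.94, 7.28, 6.36 and 6.31 in pregnant animals, against 4.27, 4.32, 4.45 and 4.28 in cyclic animals and rose by 2.14 ± 0.184 (adjusted p = 1.89e-08). MELK, a mitotic kinase, was at 5.64, 7.08, 5.50 and 5.72 in pregnant animals, against 5.28, 5.31, 5.43 and 5.35 in cyclic animals. Its difference of 0.64 ± 0.209 was 0.28 without pregnant animal 2, still called, and its call ended without any 1 of cyclic animals 1 to 4 and in the fit on the 8 arrays alone (adjusted p = 0.193). CDKN1C, an inhibitor of cyclin-dependent kinases, fell by 0.56 on the log2 scale (SE 0.144) and by 0.21 as a mean over its 3 probe sets. The list mean was 7.34 in pregnant animal 2 and 6.73 to 6.87 in the other pregnant animals, against 6.75 to 6.83 in cyclic animals. There were 3 rises and 3 falls without cyclic animal 2, 11 and 3 without pregnant animal 3, 4 and 3 without cyclic animal 3 and 5 and 3 without pregnant animal 4.

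The design also asks whether pregnancy acted differently on day 18 than on day 15. On day 15, 588 genes were called between 3 pregnant and 3 cyclic animals (6.42%), with 374 higher (4.09%) and 214 lower (2.34%), and on day 12 only 1 (0.0109%). A count of calls depends on the number of arrays, so the difference was tested directly as an interaction term. It was called for 23 genes (0.251%). The pregnancy difference was more positive on day 18 for 20 of them (0.218%) and more negative for 3 (0.0328%). The number of probe sets called was 50 (0.208%) and ranged from 21 to 81 with 1 animal left out. It was 21 without pregnant animal 3 of day 15, 22 without cyclic animal 1 of day 15, 81 without pregnant animal 1 of day 18 and 23 in the fit on the arrays of days 15 and 18 alone.

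PLET1 differed by 6.94 ± 0.347 on day 18 and 3.44 on day 15, and the day 18 effect was 3.50 ± 0.530 larger (adjusted p = 0.00269). UPK1B differed by 4.00 on day 18 and 0.49 on day 15 (day 18 minus day 15 3.51 ± 0.623, adjusted p = 0.0132). IDO1 (2.08 ± 0.296), CFB (1.77 ± 0.359), KRT17, a keratin of stressed and basal epithelium (1.62 ± 0.254), and C2, a complement protease (1.60 ± 0.180), were also larger on day 18. The 3 genes with a more negative difference on day 18 were TENM3 (-0.86 ± 0.108), ESR1 (-0.83 ± 0.167) and ALDH1L2, a mitochondrial enzyme of folate metabolism (-0.55 ± 0.109). ESR1 differed by -0.70 on day 18 and 0.13 on day 15, and TENM3 by -0.97 and -0.11. The interferon genes MX2 and ISG15 were not called in this test (0.25 ± 0.413 and -0.34 ± 0.499). In the fit on the arrays of days 15 and 18 alone PLET1 (adjusted p = 0.0814), UPK1B (0.0711), KRT17 (0.0711), CFB (0.137) and ESR1 (0.137) were not called, whereas IDO1, C2, TENM3 and ALDH1L2 were. The UPK1B call ended without cyclic animal 1 or pregnant animal 3 of day 15, and TENM3 as a mean over its probe sets was not called (adjusted p = 0.051). The calls of ESR1, CFB and ALDH1L2 ended in 7, 10 and 11 of the 14 fits with 1 animal left out, with values of -0.91 to -0.73, 1.56 to 1.96 and -0.58 to -0.52.

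**Figure D5:**
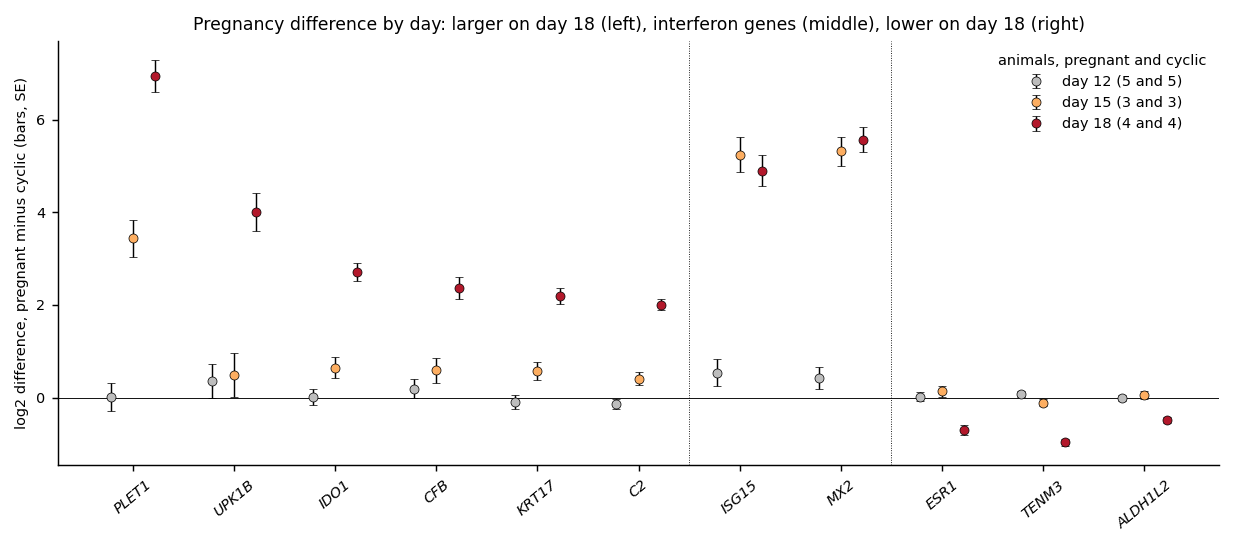
Log2 difference between pregnant and cyclic endometrium (vertical axis, bars SE) on days 12, 15 and 18 for 6 genes with a larger effect on day 18 (left), 2 interferon genes (middle) and 3 genes with a more negative difference on day 18 (right). PLET1 stands at 6.94 on day 18 and 3.44 on day 15, ISG15 and MX2 are close on both days, and ESR1, TENM3 and ALDH1L2 lie lower on day 18 than on day 15.

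Counts on day 15 are given for the lists that differed most from the background on day 18, with 3 animals a group behind them and 4.09% of all genes higher and 2.34% lower. Respiratory chain genes had 7 rises and 0 falls of 70 on day 15, amino acid and stress genes 6 and 2 of 43, secreted proteins 9 and 1 of 100, ribosomal proteins 0 and 1 of 61, and receptors 1 and 0 of 48. The interferon list had 40 and 0 of 46. Because the number of animals differed between the days, these counts are set side by side without a comparison. SPP1 was not called in the test of the difference between days (1.00 ± 0.602, adjusted p = 0.652), and neither were PTX3 (2.27 ± 0.587, adjusted p = 0.136), SERPINA14 (1.97 ± 0.603, adjusted p = 0.235) and FABP3 (1.52 ± 0.593, adjusted p = 0.394).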

How the data were processed

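Values are log2 probe set levels as deposited by the authors, and RMA and affy are the tools that the submitters' processing notes list, without versions. Further steps are not given in the sources used here. Sorted values were nearly the same within each day (largest SD of a sorted value 0.0746 on day 18) and differed between days (0.366 over 24 arrays), so each day was treated as normalised on its own, an inference from the values, and only differences within a day were used. Of 24128 probe sets 112 controls were left out. The array's annotation gave 13292 probe sets 1 symbol, 86 several and 10638 none. The symbols of 13263 were looked up in RefSeq by gene identifier, and 0 changed. Of 9155 genes 2913 had several probe sets, and the one with the highest mean over the 8 day 18 arrays stood for the gene.

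A linear model with 1 mean per group was fitted to the 24 arrays of days 12, 15 and 18 with limma 3.58.1 in R 4.3.3 (lmFit, eBayes; 18 residual degrees of freedom), so that all groups shared 1 estimate of the spread. Tests were two-sided with Benjamini-Hochberg adjustment over 24016 probe sets, and the change between days was an interaction term. The animals are separate heifers per the labels' protocols. In a test on simulated data with 24016 probe sets, the day 18 comparison recovered 47 of 67 changes of 0.5 log2 units and 65 of 67 of 1, with 14 false calls. The simulation changed far fewer probe sets than the 4562 called here and drew noise independently for each probe set. Effects shared across an animal were not simulated, so these figures may not carry over to the real comparison. Alternatives were the day's own arrays, quantile normalisation, median centring, a replicate block, array weights, an intensity trend, a filter below the 25th percentile, the GAPDH 3′ to 5′ signal difference as a covariate, a threshold of 0.01, the mean over probe sets and leaving out each animal. The replicate numbers did not pair the animals.

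The comparison, the 24 gene lists, the 13 marker lists and the naming rule below were chosen with earlier results of these data known. Named genes are the 20 largest falls and 15 largest rises outside the interferon list among called genes without overlap (symbols starting with LOC aside), the 5 largest interferon rises, up to 3 rises and 3 falls in each metabolism, secretion or adhesion list and 2 in the others, a fixed set of uterine genes, and up to 6 genes each way in the change between days. Other markers and HERC5 lie outside that rule and were chosen after their values were seen. GRP of that fixed set was not matched by symbol and is not analysed here. Arrays have no read depth, and their number limits the precision.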

Additional observations from a re-analysis of the deposited data

Results flagged for a closer look

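Within each group of 4 animals, the gap between the most extreme animal and its nearest neighbour was set against the range of the group for 160 genes, and the share exceeded Dixon's critical value in 20 of 320 groups, where chance gives about 1 in 20. Among pregnant animals the share was 0.975 for TIMD4, where pregnant animal 1 was low (8.47, the others 8.86 to 8.87), and 0.942 for ALDH18A1, where pregnant animal 1 was high. Pregnant animal 1 was also the low one for PLAC8B (0.900). Pregnant animal 2 stood apart for GPX3 (0.884), MELK (0.861) and MPC1 (0.924) as the highest and for IQCA1 (0.901) as the lowest. Pregnant animal 3 stood apart for IDO1 (0.899) and SAMD9 (0.856) as the highest, and for FKBP14 (0.926), SH3BGR (0.844) and SSLP1 (0.876) as the lowest. The difference of SSLP1 was -1.05 ± 0.277, and -0.68 without pregnant animal 3. FKBP14, an isomerase of the endoplasmic reticulum, had -0.36 ± 0.117, a call that ended without pregnant animal 3 (-0.23, adjusted p = 0.155 in limma), without cyclic animal 3 or 4 and in the fit on the 8 arrays alone (0.12).

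Among cyclic animals the share was 0.969 for SH3BGR, with cyclic animal 2 lowest, 0.938 for RSAD2 and 0.904 for CST6, with cyclic animal 2 highest, and 0.868 for MPC1, again with cyclic animal 2 highest. Cyclic animal 3 was highest for ESR1 (0.932) and IBSP (0.857), and cyclic animal 4 lowest for CDH13 (0.835) and RAB8A (0.838). RSAD2 and SAMD9 rose by 4.95 ± 0.284 and 4.02 ± 0.266 with the groups far apart.

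The pregnancy difference on day 18 exceeded that on day 15 past the threshold for PLET1 (3.50), UPK1B (3.51), IDO1 (2.08), CFB (1.77), KRT17 (1.62), C2 (1.60), CCNB2 (1.58) and ALOX5AP (1.15), and was lower for TENM3 (-0.86), ESR1 (-0.83) and ALDH1L2 (-0.55). CCNB2 differed by 2.14 on day 18 and 0.57 on day 15, and ALOX5AP by 1.78 and 0.63. The part of the horn that was sampled also differed between those days.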

How the results depend on the processing

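The count of 4562 probe sets called on day 18 ran from 3419 to 4908 with 1 animal left out, was 3392 in the fit on the 8 arrays alone and 2501 at an adjusted p below 0.01, and stayed within 1.5 times under the other alternatives. The 50 probe sets of the change between days became 18 at an adjusted p below 0.01 and 23 with the arrays of days 15 and 18 alone, and ran from 21 to 81 with 1 animal left out. With the replicate number as a block the counts were 4415 and 41; same-numbered pregnant and cyclic animals correlated at -0.216 to 0.077 in their deviations, not every animal correlated best with its own number, and the block ended 14 calls among the 160 named genes and the changes between days, among them the changes between days of KRT17 (adjusted p = 0.0527), ALDH1L2 (0.0981), ESR1 (0.161) and CFB (0.165). With the block 16 ribosomal protein genes fell, against 25 without it. The fit on the 8 arrays alone ended 26 of the named calls. Signs turned only for genes that were not called or had discordant probe sets, and the cause was not tested. LPL was -0.07 with array weights, -0.05 without cyclic animal 4 and -0.09 without pregnant animal 3, and at most 0.22 with 1 animal left out. SLC5A1 was -0.03 with array weights, -0.02 after quantile normalisation and without pregnant animal 4, -0.17 without cyclic animal 4 and -0.18 without pregnant animal 3, and at most 0.20 with 1 animal left out. PTGS2 ran from -0.22 to 0.07 with 1 animal left out, the highest without cyclic animal 1, and PDGFRA -0.00 as a mean over probe sets. Probe set values give no order between genes, and normalisation by day and the position along the horn limit comparisons between days.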

Other observations

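Some rises fell outside the rule for named genes because their symbols start with LOC, and they were chosen after their values were seen. LOC515676 had 10.23, 12.12, 12.64 and 11.97 in pregnant animals, against 6.76, 6.53, 6.80 and 7.54 in cyclic animals (4.83 ± 0.735, adjusted p = 7.21e-05 in limma). LOC100298356 had 12.21, 12.40, 12.65 and 12.06 in pregnant animals, against 7.77, 8.58, 6.93 and 7.79 in cyclic animals (4.56 ± 0.401, adjusted p = 2.78e-08 in limma). The groups did not overlap in either gene, and the files give no function for them. LOC506921 was lower, at 5.69, 5.39, 5.88 and 5.29 in pregnant animals, against 6.84, 7.01, 6.36 and 6.68 in cyclic animals (-1.16 ± 0.266, adjusted p = 0.0036 in limma). Of the 4562 called probe sets 1768 had no single symbol and are described here only by their number.

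Counts for markers of further cell types are set against the 12.6% of all genes that rose and the 10.4% that fell. Of 10 neutrophil markers 3 rose (30.0%) and 0 fell. The rises were the calgranulins S100A12 (2.41 ± 0.284) and S100A8 (0.90 ± 0.234) and the Fc receptor FCGR3A (1.23 ± 0.127). The granule genes MPO (-0.13 ± 0.0902) and ELANE (0.05 ± 0.0877) were not called. The mean level of the list was 5.66 to 5.86 in pregnant and 5.30 to 5.65 in cyclic animals. Without pregnant animal 1 the list had 3 rises and 1 fall. Of 18 T and NK cell markers 1 rose and 1 fell (5.56% each way), with means of 6.54 to 7.08 in pregnant and 6.49 to 6.92 in cyclic animals. Without any 1 of cyclic animals 3 and 4 and pregnant animals 1 and 3 there were 2 rises. Of 6 B and plasma cell markers 1 rose (16.7%) and 0 fell, with 3 rises without cyclic animal 4. Their means were 6.35 to 6.82 in pregnant and 5.69 to 7.24 in cyclic animals. Of 6 markers of glandular epithelium only SERPINA14 was called, a rise (16.7%). Smooth muscle, mast cell and erythrocyte or platelet markers had 0 of 9, 0 of 3 and 0 of 7 called in limma; without pregnant animal 1 there was 1 rise among smooth muscle markers and without pregnant animal 2 there was 1 fall among mast cell markers.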
